A study of Homo sapiens with 6 samples.

Results

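The 39 genes described here encode proteins of DNA replication and of the step from G1 into S phase of the cell cycle, and they are 39 of the 18417 genes measured. They were taken from a named list: for each gene, the array probe set annotated to that symbol alone was used, and where a gene had several, the one with the highest mean. All 39 were found, and 1 of them, UHRF1, had more than 1 such probe set. The study silenced STEAP1, a metalloreductase family gene of the cell surface, in A673 and SK-N-MC, both established Ewing tumor cell lines. Each line gave 2 arrays of cells with an siRNA against STEAP1, 1 with siRNA 2 and 1 with siRNA 3, and 1 array of cells given a non-silencing control siRNA, whose sequence or maker is not named. The title of the control array ends in a 2 for A673 but has no number for SK-N-MC, with no stated meaning. Per the labels' protocols, cells were kept for 48 h in medium with 5 nM of siRNA reagent, and their RNA was put on Affymetrix arrays. Whether separate cultures were used is not stated in the labels, and p-values therefore cover only the spread among these arrays. No array shares both its line and its treatment with another. Depending on the fit, that spread includes differences between the siRNAs or between the lines in their response, and the rest may be technical. Each line stands for 1 genetic background, and the spread of controls within a line is unknown because each line has 1.

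Before a cell copies its DNA, origins are licensed: the origin recognition complex with CDC6 and CDT1 loads the MCM2 to MCM7 ring, the core of the replicative helicase. CDC45 and the GINS complex then switch the helicase on, primase and the polymerases start the strands, the clamp loader RFC places the PCNA clamp, and FEN1 and LIG1 finish the lagging strand. Many of these genes are transcribed in late G1 and S phase by E2F factors, which the retinoblastoma protein holds back until cyclin kinases release them. Ewing tumor cells are driven by fusions of EWSR1 with an ETS factor, and E2F target genes are among those known to depend on the fusion.

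E2F words were looked for in the promoters of these genes. Among the 39 genes, 35 had at least 1 start site in the RefSeq promoter table of build GRCh38.p14, which gives 250 bases before to 50 bases after each start. E2F8, CCNE2, MCM4 and MCM5 were not matched. A promoter was counted as holding an E2F word where it contained TTTCCCGC, TTTGGCGC, TTTGCCGC or TTTCGCGC on either strand. An E2F word stood at 1 or more starts of 19 of these 35 genes, or 54.3%, against 5.4% of 15843 protein-coding genes and 3.99% of all 27305 genes in the table. The CCAAT box (CCAAT on either strand), known for NF-Y binding, stood in 21 of the 35 genes, or 60%, against 42.1% of protein-coding genes. The CHR element known from G2/M genes (TTTGAA on either strand) stood in 1 of the 35, or 2.86%, against 15.8% of protein-coding genes. Of 27 E2F words found, 20 began no more than 100 bases before a start. A match describes letters and not a bound site. In MCM7 an E2F word overlapped a CCAAT box.

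Promoters of 6 genes are shown because these genes carry E2F words and yet differed in opposite directions between the lines, as described below: CDC25A, CDC6 and MCM3 were lower in A673, and CDT1, GINS2 and MCM6 were higher. Capitals mark E2F words, and each sequence reads 5′ to 3′ along the strand of its gene, from 250 bases before the start to 50 after it. The regions are chr3:48188368-48188667 on the minus strand for CDC25A, chr17:40287629-40287928 on the plus strand for CDC6, chr6:52284693-52284992 on the minus strand for MCM3, chr16:88803539-88803838 on the plus strand for CDT1, chr16:85688905-85689204 on the minus strand for GINS2 and chr2:135876394-135876693 on the minus strand for MCM6.
CDC25A: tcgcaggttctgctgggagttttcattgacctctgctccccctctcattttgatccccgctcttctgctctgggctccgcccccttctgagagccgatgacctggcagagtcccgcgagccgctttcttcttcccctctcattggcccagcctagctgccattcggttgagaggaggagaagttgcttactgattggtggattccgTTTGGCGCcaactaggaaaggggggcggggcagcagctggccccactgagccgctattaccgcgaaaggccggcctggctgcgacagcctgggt
CDC6: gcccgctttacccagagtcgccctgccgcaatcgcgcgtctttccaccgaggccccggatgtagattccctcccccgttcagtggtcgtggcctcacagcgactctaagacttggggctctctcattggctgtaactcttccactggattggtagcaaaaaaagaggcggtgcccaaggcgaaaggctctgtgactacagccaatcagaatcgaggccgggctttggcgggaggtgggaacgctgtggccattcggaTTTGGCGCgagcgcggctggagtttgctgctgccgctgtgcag
MCM3: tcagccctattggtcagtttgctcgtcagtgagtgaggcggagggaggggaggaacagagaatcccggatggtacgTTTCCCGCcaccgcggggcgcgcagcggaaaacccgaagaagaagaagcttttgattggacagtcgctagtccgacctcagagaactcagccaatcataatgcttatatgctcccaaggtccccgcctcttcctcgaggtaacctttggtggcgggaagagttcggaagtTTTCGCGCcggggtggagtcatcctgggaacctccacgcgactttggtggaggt
CDT1: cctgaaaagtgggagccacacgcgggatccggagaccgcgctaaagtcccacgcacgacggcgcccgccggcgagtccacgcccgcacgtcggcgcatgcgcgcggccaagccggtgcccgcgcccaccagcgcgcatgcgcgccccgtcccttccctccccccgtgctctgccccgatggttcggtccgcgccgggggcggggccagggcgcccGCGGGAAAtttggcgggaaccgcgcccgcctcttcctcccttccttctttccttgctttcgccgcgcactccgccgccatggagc
GINS2: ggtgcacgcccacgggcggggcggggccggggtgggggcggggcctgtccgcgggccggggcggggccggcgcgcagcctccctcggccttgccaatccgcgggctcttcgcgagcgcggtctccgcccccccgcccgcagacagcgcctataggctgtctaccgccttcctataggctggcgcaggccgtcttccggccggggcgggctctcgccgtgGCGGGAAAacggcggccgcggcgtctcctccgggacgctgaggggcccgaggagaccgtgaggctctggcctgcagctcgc
MCM6: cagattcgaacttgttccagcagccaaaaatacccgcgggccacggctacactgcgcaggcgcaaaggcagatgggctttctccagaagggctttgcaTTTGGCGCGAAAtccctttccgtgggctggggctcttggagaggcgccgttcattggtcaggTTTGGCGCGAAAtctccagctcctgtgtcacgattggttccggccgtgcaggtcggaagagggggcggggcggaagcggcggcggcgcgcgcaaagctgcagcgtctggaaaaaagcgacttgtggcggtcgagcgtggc
MCM3 and MCM6, subunits of the same ring with opposite signs between the lines, both hold the word TTTCGCGC. CDC25A, CDC6 and MCM6 share the word TTTGGCGC, while CDT1 and GINS2 hold TTTCCCGC on the other strand. In MCM6 the words lie in 2 places, each with TTTGGCGC and TTTCGCGC overlapping on opposite strands. An E2F word was found in 7 of the 13 matched genes that were called higher in A673, in 3 of the 5 called lower and in 9 of the 17 not called.

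**Figure D1:**
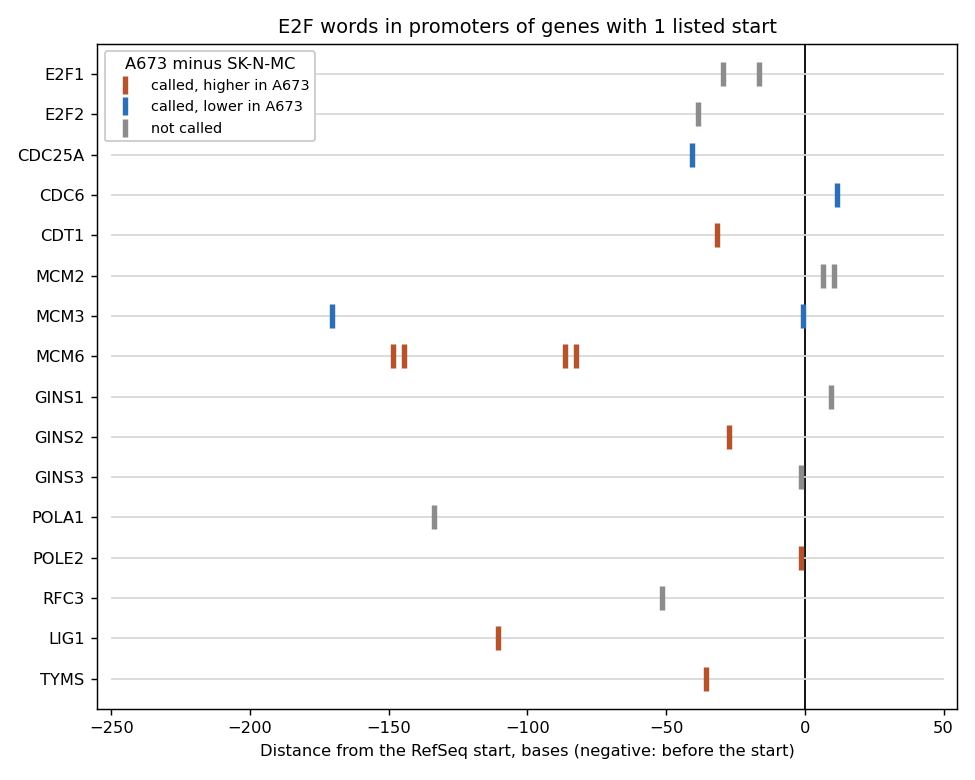
Places of E2F words in promoters of the 16 replication and G1/S genes that hold one and have 1 listed start; the horizontal axis is the distance from the RefSeq start in bases, each tick is 1 word, and colour gives the call of the line difference. Genes called higher in A673, called lower in A673 and not called all include words close to the start.

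Levels below are log2 of deposited array intensities, and differences carry the standard error (SE) of a limma fit. A gene was called where its Benjamini-Hochberg adjusted p over 18417 genes was under 0.05. STEAP1 itself lay at 4.53 with siRNA 2 and 4.59 with siRNA 3 in A673, against 6.23 in the control, and at 4.17 and 4.73 with the siRNAs in SK-N-MC, against 7.15 in the control. It was lower in 4 of 4 siRNA arrays (-2.18, SE 0.24, limma adjusted p = 0.293), without passing the threshold. Correlations across genes were 0.986 to 0.993 between arrays of a line, and 0.946 to 0.949 between arrays of unlike lines. Of the Ewing tumor markers, CD99, NKX2-2, PRKCB, BCL11B and LIPI lay between 4.84 and 10.25 in all arrays, and NR0B1 was not analysed here. The 7 leukocyte, endothelial and epithelial markers (PTPRC, CD3E, CD14, PECAM1, CDH5, EPCAM and CDH1) lay between 1.01 and 2.26 in all arrays. Means of the 39 genes over the 6 arrays lay between 3.70 and 7.99, above array medians of 3.21 to 3.24, and 38 of them had a mean of at least 4, all but E2F8.

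Many of these genes differed between the lines. Of the 39 genes, 20 were called between A673 and SK-N-MC, 14 higher and 6 lower in A673, where 24.8% of all genes were called (13.5% higher and 11.4% lower). At an unadjusted p under 0.05, 25 of the 39 and 34.1% of all genes differed. Among 7413 genes with a mean of at least 4, 38.9% were called (22.5% higher and 16.4% lower), against 20 of the 38 replication and G1/S genes at that level. The median difference was 0.24 over the 39 genes (0.15 after a second quantile normalization), -0.02 over all genes and 0.02 over genes with a mean of at least 4. Arrays of the lines did not overlap for 27 of the 39 genes, 21 with A673 above and 6 with A673 below, where 37.9% of all genes and 54.1% of those with a mean of at least 4 did not overlap. Of all genes, 19.4% had A673 above in this way and 18.5% had A673 below. Among the 27, 7 were not called, all with A673 above: MCM2, MCM7, CDC45, RFC2, RFC4, RRM1 and CHAF1A. In bulk RNA a smaller share of cells in S phase and less RNA per cell cannot be told apart. Of the 20 calls, 15 (11 higher and 4 lower) also passed under each of the 13 other settings tried, and the other 5 are marked below with what they lost. Another 6 genes, CDC45, E2F8, MCM2, MCM7, PRIM1 and RRM1, were called higher in A673 under 1 or more of these settings only, as given beside each.

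**Figure D2:**
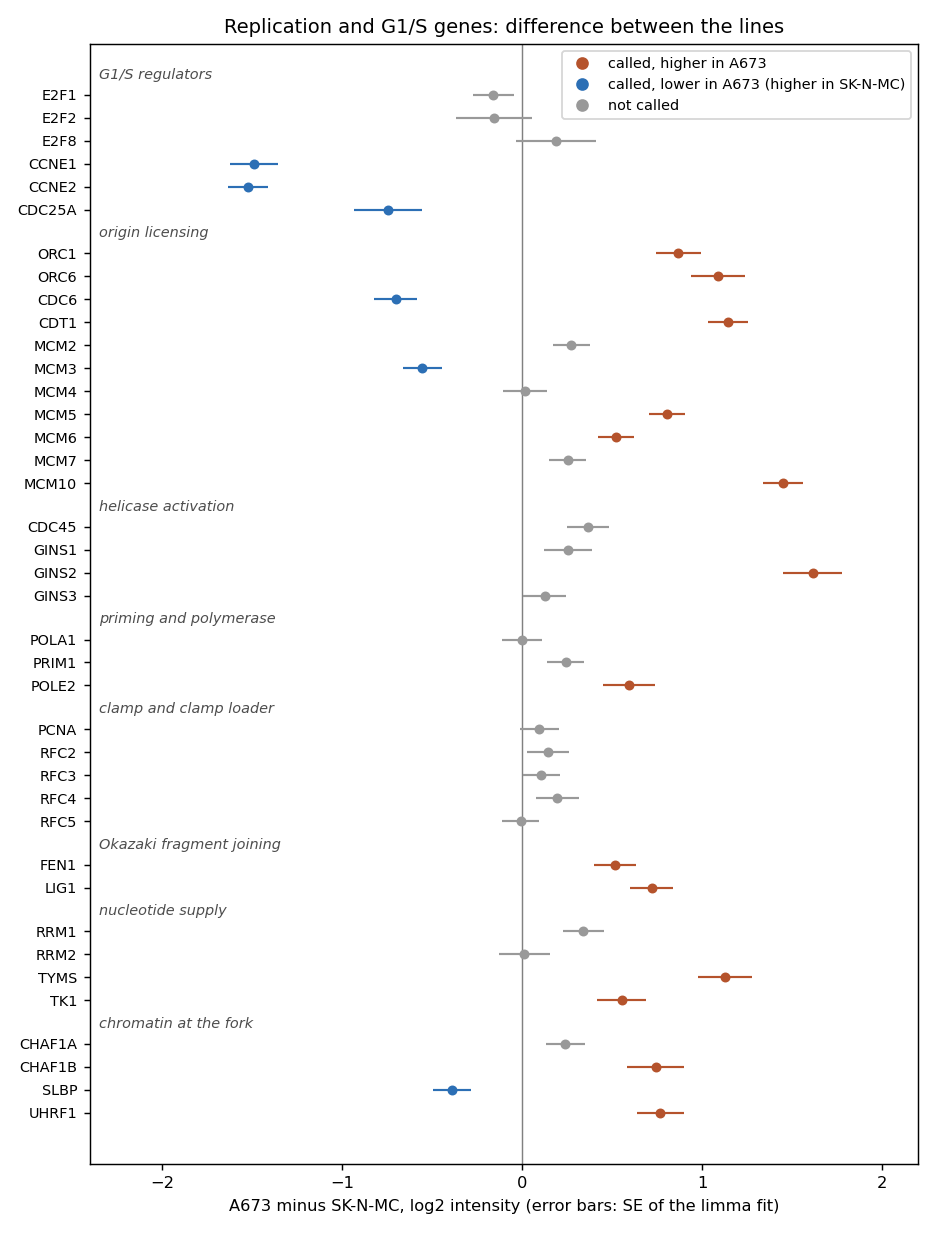
Difference between A673 and SK-N-MC for each of the 39 genes, by role; the horizontal axis is the log2 difference (A673 minus SK-N-MC), points are estimates of the limma fit over 3 arrays per line and bars their SE. Cyclin E genes and CDC25A lie left of 0, most licensing genes lie right of it, and the 5 clamp and clamp loader genes lie close to 0.

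Of the 6 G1/S regulators, 3 were called lower in A673 and 0 higher. CCNE1, which encodes cyclin E1, the partner of CDK2 at S phase entry, lay at 3.96 with siRNA 2, 3.96 with siRNA 3 and 3.94 in the control in A673, against 5.27, 5.28 and 5.78 under the same treatments in SK-N-MC. CCNE2, for cyclin E2, lay at 3.63, 3.86 and 3.92 in A673, against 5.20, 5.27 and 5.50 in SK-N-MC. No A673 array of either gene came within 1 log2 unit of an SK-N-MC array. The differences were -1.49 (SE 0.13, limma adjusted p = 1.06e-04) and -1.52 (SE 0.11, adjusted p = 3.81e-05), so both genes were 2.81-fold and 2.87-fold lower in A673 on the array scale. With 16 added to each intensity before log2, they stood at -0.92 and -0.90, still called.

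CDC25A, the phosphatase that activates CDK2, lay at 5.01 with siRNA 2, 4.32 with siRNA 3 and 4.89 in the control in A673, against 5.50, 5.16 and 5.80 in SK-N-MC. It was lower in A673 at -0.75 (SE 0.19, adjusted p = 0.0206). The call was lost without either control array (-0.67, adjusted p = 0.122 in each case), without SK-N-MC siRNA 2 (-0.67, adjusted p = 0.0651), without A673 siRNA 3 (-0.57, adjusted p = 0.0759) and with 16 added to each intensity (-0.51, adjusted p = 0.0831). The E2F genes themselves were not called in this fit. E2F1, an activator, differed by -0.16 (95% interval -0.42 to 0.10), E2F2, another activator, by -0.15 (-0.64 to 0.33) and E2F8, an atypical repressor, by 0.19 (-0.32 to 0.70). These intervals leave out a 2-fold difference in either direction. Without SK-N-MC siRNA 2, E2F8 was called higher in A673 at 0.48 (adjusted p = 0.0379).

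Of the 11 genes grouped under licensing, 6 were called higher in A673 and 2 lower. The group includes MCM10, although it acts after loading. CDT1, the loader of the MCM ring, lay at 6.20 with siRNA 2, 6.18 with siRNA 3 and 5.79 in the control in A673, against 4.91, 5.06 and 4.78 in SK-N-MC. MCM10, which helps the loaded helicase start, lay at 6.07, 6.19 and 6.15 in A673, against 4.78, 4.56 and 4.73 in SK-N-MC. A673 arrays were all higher than SK-N-MC arrays for both genes, by 1.14 (SE 0.11, adjusted p = 1.57e-04) and 1.45 (SE 0.11, adjusted p = 4.92e-05), or 2.21-fold and 2.73-fold. ORC6 (1.09, SE 0.15) and ORC1 (0.87, SE 0.12), subunits of the origin recognition complex, were higher as well, at 6.24 to 6.41 and 5.47 to 5.78 in A673, against 5.02 to 5.55 and 4.66 to 4.98 in SK-N-MC. CDC6 went the other way: this partner of CDT1 lay at 6.94, 6.71 and 6.56 in A673, against 7.46, 7.41 and 7.46 in SK-N-MC (-0.70, SE 0.12, adjusted p = 0.00313). The 2 loaders of the same ring thus had opposite signs between the lines.

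The MCM ring was not uniform. MCM5 lay at 7.43 to 7.48 in A673, against 6.54 to 6.75 in SK-N-MC (0.80, SE 0.10, adjusted p = 6.82e-04), and MCM6 at 7.51 to 7.70, against 6.98 to 7.14 (0.52, SE 0.10, adjusted p = 0.00625). MCM3 lay at 7.0 to 7.1 in A673, against 7.5 to 7.7 in SK-N-MC (-0.55, SE 0.11, adjusted p = 0.00636). MCM2 (0.27, 95% interval 0.03 to 0.51), MCM7 (0.25, 0.01 to 0.49) and MCM4 (0.01, -0.27 to 0.30) were not called, though A673 arrays of MCM2 and MCM7 lay above all SK-N-MC arrays. With 16 added to each intensity both were called, MCM2 at 0.24 (adjusted p = 0.0257) and MCM7 at 0.24 (adjusted p = 0.0307). Subunits that work in 1 complex therefore included called genes of either sign.

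Of the helicase activators, GINS2 had the largest positive difference of the 39 genes. It lay at 7.04 with siRNA 2, 6.49 with siRNA 3 and 6.87 in the control in A673, against 5.28, 4.95 and 5.34 in SK-N-MC (1.61, SE 0.16, adjusted p = 2.25e-04), which is 3.06-fold. Its partners in the same complex were not called: GINS1 differed by 0.25 (95% interval -0.05 to 0.56) and GINS3 by 0.12 (-0.15 to 0.40). CDC45, the helicase cofactor, was above SK-N-MC in all A673 arrays and missed the threshold (0.36, SE 0.12, adjusted p = 0.0523). It was called under 6 of the 13 other settings, at 0.29 to 0.42.

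At the fork, the clamp and its loader showed no call. PCNA, the sliding clamp, differed by 0.10 (95% interval -0.16 to 0.35), and the loader subunits RFC2, RFC3, RFC4 and RFC5 by -0.01 to 0.20. None of these 5 was called, and each interval lay within a 2-fold change, as did 15690 of the 18417 over all genes. A673 arrays still lay above all SK-N-MC arrays for RFC2 (6.81 to 7.02, against 6.63 to 6.79) and RFC4 (6.67 to 6.76, against 6.34 to 6.64). POLA1, the catalytic subunit of polymerase alpha, stood at -0.0015 (95% interval -0.25 to 0.25), and PRIM1, the small primase subunit, at 0.24 (0.0047 to 0.48). PRIM1 was called with 16 added to each intensity (0.21, adjusted p = 0.0263). POLE2, a subunit of polymerase epsilon, was higher in A673 by 0.59 (SE 0.14, adjusted p = 0.0164). Its call was lost without either control array (0.61, adjusted p = 0.0721 in each case), without A673 siRNA 2 (0.61, adjusted p = 0.0529) and without A673 siRNA 3 (0.57, adjusted p = 0.0638). With 16 added to each intensity it stood at 0.37, still called.

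All 6 genes for Okazaki fragment joining and nucleotide supply had positive differences, and 4 of them were called higher in A673. LIG1, the ligase, lay at 5.99 to 6.05 in A673, against 5.10 to 5.58 in SK-N-MC (0.72, SE 0.12, adjusted p = 0.00281). FEN1, the flap nuclease, was higher by 0.51 (SE 0.12, adjusted p = 0.0131), a call lost without A673 siRNA 3 (0.49, adjusted p = 0.0561). TYMS, which makes thymidylate, lay at 8.72 with siRNA 2, 8.42 with siRNA 3 and 8.52 in the control in A673, against 7.55, 7.14 and 7.59 in SK-N-MC (1.13, SE 0.15, adjusted p = 8.87e-04, 2.18-fold). TK1, thymidine kinase, was higher by 0.55 (SE 0.14, adjusted p = 0.0182). Its call was lost without SK-N-MC siRNA 3 (0.51, adjusted p = 0.0621), without A673 siRNA 3 (0.41, adjusted p = 0.0635) and with 16 added to each intensity (0.47, adjusted p = 0.0520). Of the ribonucleotide reductase subunits, RRM1 differed by 0.34 (0.08 to 0.60, adjusted p = 0.0661) and RRM2 by 0.01 (-0.32 to 0.34). RRM1 was called among genes with a mean of at least 4 (adjusted p = 0.0463) and with an intensity trend (adjusted p = 0.0313).

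Among genes of chromatin at the fork, CHAF1B, a subunit of the histone chaperone CAF-1, lay at 6.84 to 7.03 in A673, against 5.95 to 6.55 in SK-N-MC (0.74, SE 0.16, adjusted p = 0.00941). UHRF1, which guides maintenance of DNA methylation, was higher by 0.77 (SE 0.13, adjusted p = 0.00311). Its other probe set, dim at 2.09 to 2.65, differed by 0.093, and the mean of both stood at 0.43, still called. CHAF1A, the partner of CHAF1B, was not called at 0.24 (-0.01 to 0.49). SLBP, which binds the stem-loop of histone mRNA, was lower in A673, at -0.39 (SE 0.10, adjusted p = 0.0269). That call was lost without either control array (-0.40, adjusted p = 0.0969 in each case), without SK-N-MC siRNA 3 (-0.35, 0.0909), without A673 siRNA 2 (-0.36, 0.0983) and without A673 siRNA 3 (-0.41, 0.0726).

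**Figure D3:**
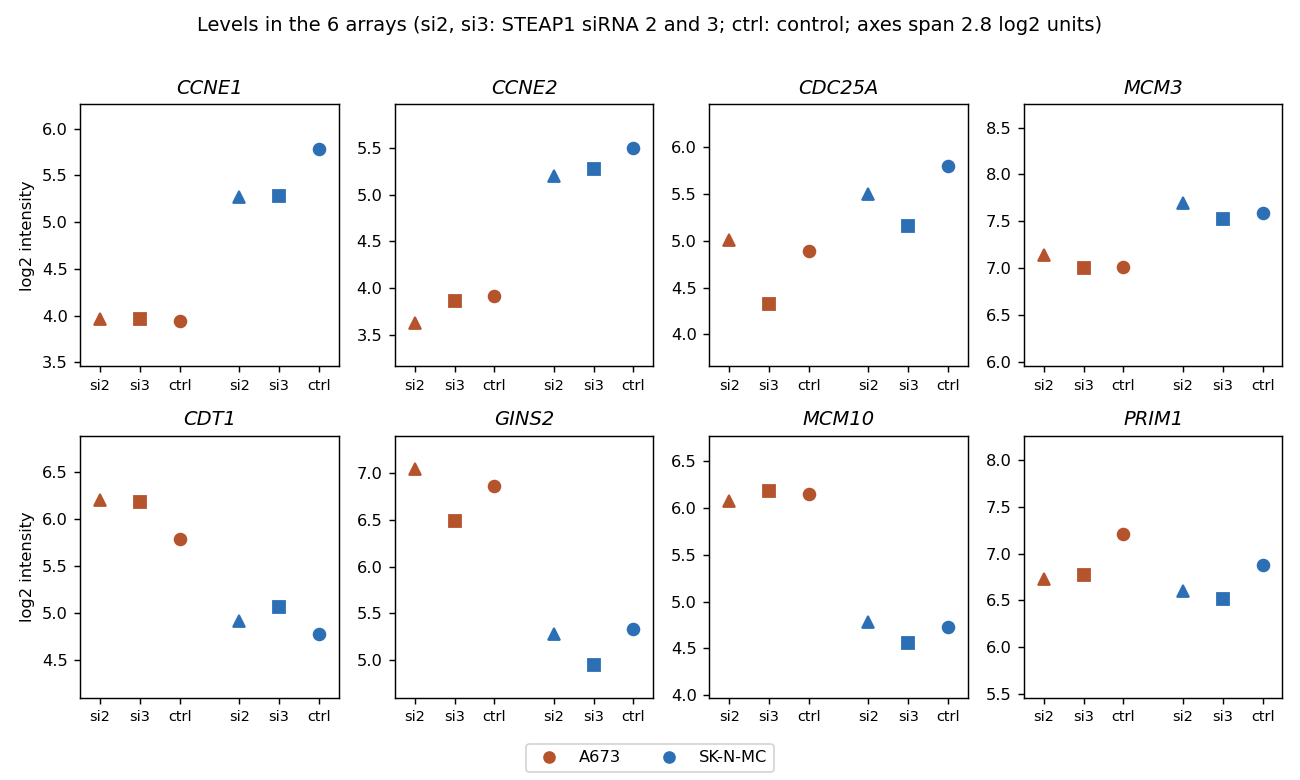
Levels of 8 of the genes in each of the 6 arrays, as log2 intensity on axes of equal span; triangles are siRNA 2, squares siRNA 3 and circles the control, A673 in orange on the left and SK-N-MC in blue on the right of each panel. CCNE1, CCNE2 and MCM3 are lower and CDT1, GINS2 and MCM10 higher in all A673 arrays, and in PRIM1 both siRNA arrays lie below control in each line.

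Other genes of the pathway were set beside these. For comparison, 13.5% of all genes were called higher in A673 and 11.4% lower. Among genes with a mean of at least 4 these shares were 22.5% and 16.4%. Of 37 measured genes of a list of further replication genes, 3 were called higher in A673 and 3 lower (median 0.09), among them RPA1, a subunit of the single-strand binding protein (1.01, SE 0.10), and EXO1, an exonuclease (-0.76, SE 0.12). Of 30 G2/M genes, 12 were called higher and 2 lower (median 0.35), with UBE2C, a cyclin ubiquitin ligase partner, at 1.23 (SE 0.11) and TOP2A, topoisomerase II alpha, at -1.21 (SE 0.13). Of 24 G1 regulators, 4 were called higher and 9 lower (median -0.14). CCND1 for cyclin D1 was higher in A673 (1.78, SE 0.14), while CCND2 for cyclin D2 (-5.52, SE 0.14) and the CDK4 inhibitor gene CDKN2A (-3.83, SE 0.13) were lower. In A673, CCND2 (1.79 to 2.07) and CDKN2A (2.38 to 2.65) lay below the array medians of 3.21 to 3.24, so the sizes of these differences rest on dim values. CCND3, for cyclin D3, was lower in all A673 arrays (4.99 to 5.09, against 5.63 to 5.80 in SK-N-MC). SK-N-MC thus had the higher cyclin D2, cyclin D3 and cyclin E values, and A673 the higher cyclin D1 value.

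Silencing of STEAP1 gave no call in any of the 39 genes. Across both lines limma called 0 of 18417 genes higher and 0 lower, where 4.63% of all genes and 2 of the 39 had an unadjusted p under 0.05. STEAP1 itself, at -2.18, was not called either, so the absence of calls does not show an absence of response. The median difference of the 39 genes was 0.01 (all genes -0.01), 20 were positive and 19 negative, and the range was -0.39 to 0.31. With 1 array left out the median lay between -0.06, without the A673 control, and 0.05, without the SK-N-MC control, and 16 and 24 of the 39 genes were then positive. Without the control of a line the estimate rests on the other line alone, so these ends are the medians within SK-N-MC and within A673. The median was also below 0 without SK-N-MC siRNA 2 and without either A673 siRNA array, so it had no settled sign. All 39 of the 95% intervals lay within a 2-fold change, as did 18204 of the 18417 over all genes, so this count is near the background. Each of the 39 intervals left out a response of 2-fold or more shared by the lines. In 9 of the 39 genes all 4 siRNA arrays lay on 1 side of control, 4 higher (CDT1, MCM5, MCM6 and MCM7) and 5 lower (CCNE2, CDC45, PRIM1, LIG1 and SLBP), beside 21.8% of all genes, so this count is near the background. The 2 siRNA arrays of a line share its control array.

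PRIM1 had the smallest p of the 39. It lay at 6.73 with siRNA 2 and 6.78 with siRNA 3 in A673, against 7.21 in the control, and at 6.60 and 6.51 with the siRNAs in SK-N-MC, against 6.88 in the control. All siRNA arrays were below control in each line (-0.39, SE 0.11, 95% interval -0.64 to -0.14, limma adjusted p = 0.989), and the value lay between -0.45 and -0.33 with any 1 array left out. These ends are its responses within A673 and within SK-N-MC, each from 1 line alone. CDT1 stood on the higher side in 4 of 4 siRNA arrays (0.31, SE 0.12, adjusted p = 0.989), with responses of 0.42 and 0.40 in A673 and 0.13 and 0.28 in SK-N-MC. Neither difference passed the threshold over all genes.

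The next smallest p-values belonged to CCNE2 (-0.22, SE 0.12), LIG1 (-0.23, SE 0.13), CCNE1 (-0.24, SE 0.14) and CDC25A (-0.34, SE 0.20), each with an adjusted p of 0.989. With the SK-N-MC control left out CCNE1 stood at 0.024, and with the A673 control left out at -0.50. LIG1 stood at -0.04 and -0.41 under the same omissions, and CDC25A at -0.22 and -0.46. Each such value is the response within the line that keeps its control. CDC25A was at -0.08 for siRNA 2 against control and -0.60 for siRNA 3 against control. The MCM2 to MCM7 subunits lay between 0.04 and 0.14, all 6 positive, also with a second quantile normalization and with median centring. None was called, and within SK-N-MC without siRNA 2 only 3 of the 6 were positive.

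**Figure D4:**
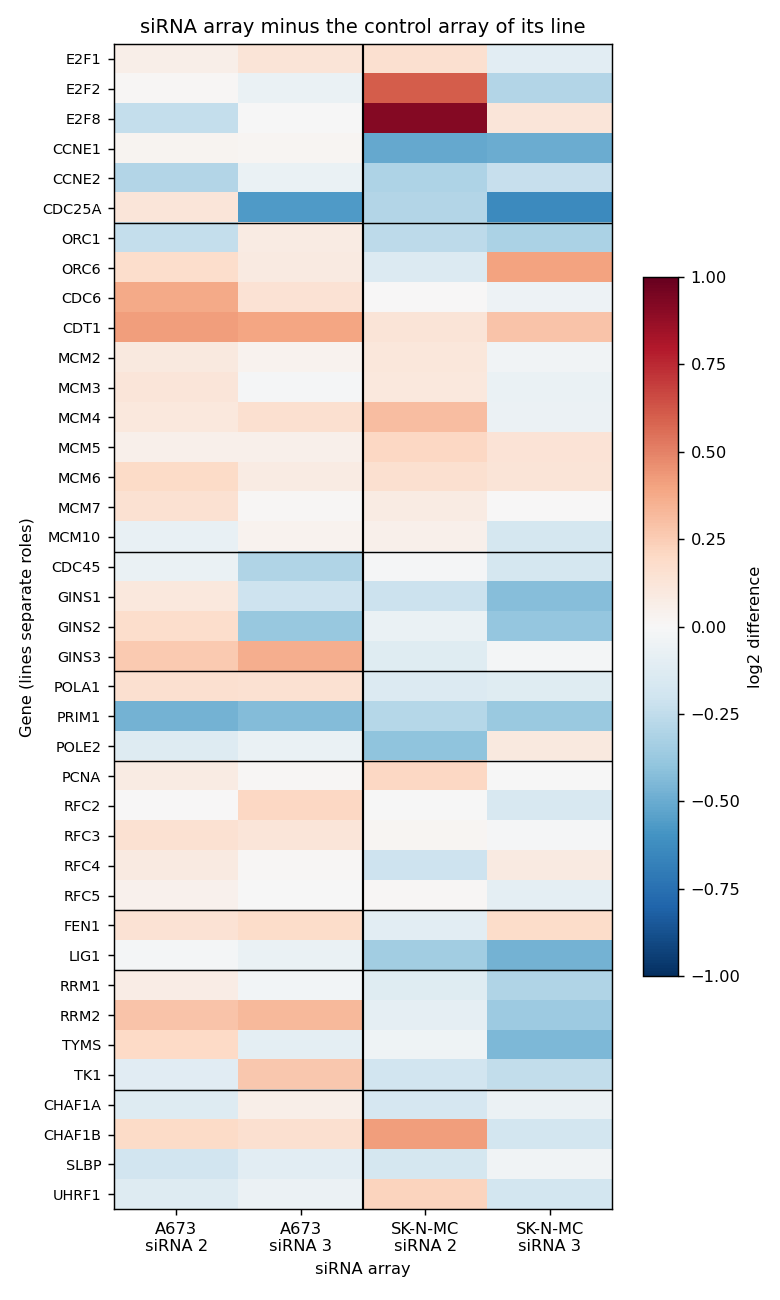
Response of each of the 39 genes in the 4 siRNA arrays, as log2 difference from the control array of the same line; rows are genes grouped by role, columns are arrays, red is higher and blue lower than control. PRIM1 is lower and CDT1 higher in all 4 columns, and E2F8 and E2F2 are high in the SK-N-MC siRNA 2 column.

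Within A673, limma called 0 of the 39 genes and 0% of all genes, with 3.35% of all genes at an unadjusted p under 0.05. The smallest p-values were those of PRIM1 (-0.45, SE 0.16), CDT1 (0.41, SE 0.17) and GINS3 (0.31, SE 0.17), each with an adjusted p of 1.00. Both siRNA arrays were above control for 19 of the 39 genes and below for 8, where 32.3% and 33.1% of all genes, and 37.3% and 26.6% of genes with a mean of at least 4, did so. Within SK-N-MC, 0 of the 39 genes were called, where 1 gene of all, or 0.00543%, was called lower and 5.12% had an unadjusted p under 0.05. There CCNE1 (-0.50, SE 0.16, adjusted p = 0.876), LIG1 (-0.41, SE 0.17, adjusted p = 0.954) and PRIM1 (-0.33, SE 0.16, adjusted p = 0.993) came first. Both siRNA arrays were above control for 5 of the 39 genes and below for 18, where 31.4% and 32.7% of all genes, and 22.3% and 40.8% of genes with a mean of at least 4, did so. Medians of the 39 genes were 0.05 in A673 and -0.06 in SK-N-MC, beside 0.02 and -0.06 for genes with a mean of at least 4. The SK-N-MC median changed sign to 0.02 after a second quantile normalization. Of 14 measured interferon genes of a short list, 9 were negative within A673 (median -0.07) and 14 within SK-N-MC (median -2.20), and their part in these values was not tested.

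The 4 genes of nucleotide supply had mean responses of 0.03 to 0.30 in A673 and -0.24 to -0.21 in SK-N-MC. In A673 only RRM2 had both siRNA arrays above control: RRM1 and TYMS were below it with siRNA 3 (-0.02 and -0.10), and TK1 with siRNA 2 (-0.11). After a second quantile normalization 3 of the 4 were positive in A673. RRM2, the small ribonucleotide reductase subunit, lay at 7.01 with siRNA 2 and 7.05 with siRNA 3 in A673, against 6.73 in the control, and at 6.98 and 6.70 with the siRNAs in SK-N-MC, against 7.06 in the control. Its siRNA arrays were above control in A673 and below in SK-N-MC. The direct test of the difference of the responses, A673 minus SK-N-MC, called none of the 39 genes, where 0 of 18417 genes were called and 3.86% had an unadjusted p under 0.05. CCNE1 (0.53, SE 0.22), RRM2 (0.53, SE 0.26) and GINS3 (0.38, SE 0.23) had the smallest p-values, each with an adjusted p of 1.00. Whether these responses differ between the lines is therefore not shown. Across the 39 genes the mean responses of the lines, which share no array, correlated at r = 0.366, beside 0.157 across genes with a mean of at least 4 and 0.0594 across all genes. This describes the genes, whose values are not replicates of each other.

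The 2 siRNAs were then set against each other. With all arrays in the fit the difference itself uses no control array, but its SE and p do. With an siRNA array left out, the difference also draws on the controls. For siRNA 2 minus siRNA 3 across lines, limma called 0 genes higher and 0 lower, 6.67% of all genes had an unadjusted p under 0.05, and 4 of the 39 did. CDC25A had the smallest p: its siRNA 2 array was above its siRNA 3 array by 0.69 in A673 and by 0.35 in SK-N-MC (0.52, SE 0.15, adjusted p = 0.600). GINS2 followed at 0.44 (SE 0.14, adjusted p = 0.657), with 0.55 in A673 and 0.32 in SK-N-MC. TYMS stood at 0.35 (SE 0.15, adjusted p = 0.731), with 0.29 in A673 and 0.41 in SK-N-MC. In these 3 genes siRNA 2 was the higher in each line.

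E2F2 (0.49, SE 0.20, adjusted p = 0.728) and CHAF1B (0.32, SE 0.17, adjusted p = 0.808) rested on SK-N-MC, where siRNA 2 was above siRNA 3 by 0.90 and 0.60, beside 0.08 and 0.03 in A673. With SK-N-MC siRNA 2 left out, E2F2 was at 0.13 and CHAF1B at 0.12, and with SK-N-MC siRNA 3 left out they were at 0.23 and 0.089. These values with an array left out draw on the control arrays as well. E2F8 was at -0.24 in A673 and 0.80 in SK-N-MC. In SK-N-MC it lay at 4.17 with siRNA 2 and 3.38 with siRNA 3, against 3.26 in the control. GINS1 stood at 0.26 (SE 0.14, adjusted p = 0.817), with 0.32 in A673 and 0.21 in SK-N-MC, and so did not rest on SK-N-MC.

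Over the 39 genes the median of siRNA 2 minus siRNA 3 was 0.08, beside -0.01 for all genes and -0.03 for those with a mean of at least 4, and it was 0.0057 without SK-N-MC siRNA 3. In both lines siRNA 2 was above siRNA 3 for 18 of the 39 genes and below for 6, where 24.6% and 26.3% of all genes, and 23.6% and 31% of genes with a mean of at least 4, did so. All MCM2 to MCM7 subunits were positive, at 0.04 to 0.15, but 4 of the 6 without SK-N-MC siRNA 2 and 5 of the 6 without SK-N-MC siRNA 3. Across the 39 genes the values of the lines correlated at r = 0.161, beside 0.193 across genes with a mean of at least 4 and 0.0663 across all genes. All 39 of the 95% intervals lay within a 2-fold change, as did 18102 of the 18417 over all genes. Of the further lists, CDC7, the kinase that fires licensed origins, was at 0.72 (SE 0.16, adjusted p = 0.572), and CDK2, the partner of cyclin E, at -0.64 (SE 0.13, adjusted p = 0.572), neither called. CDC7 lay at 5.16 with siRNA 2 and 4.48 with siRNA 3 in A673, and at 5.37 and 4.60 in SK-N-MC.

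**Figure D5:**
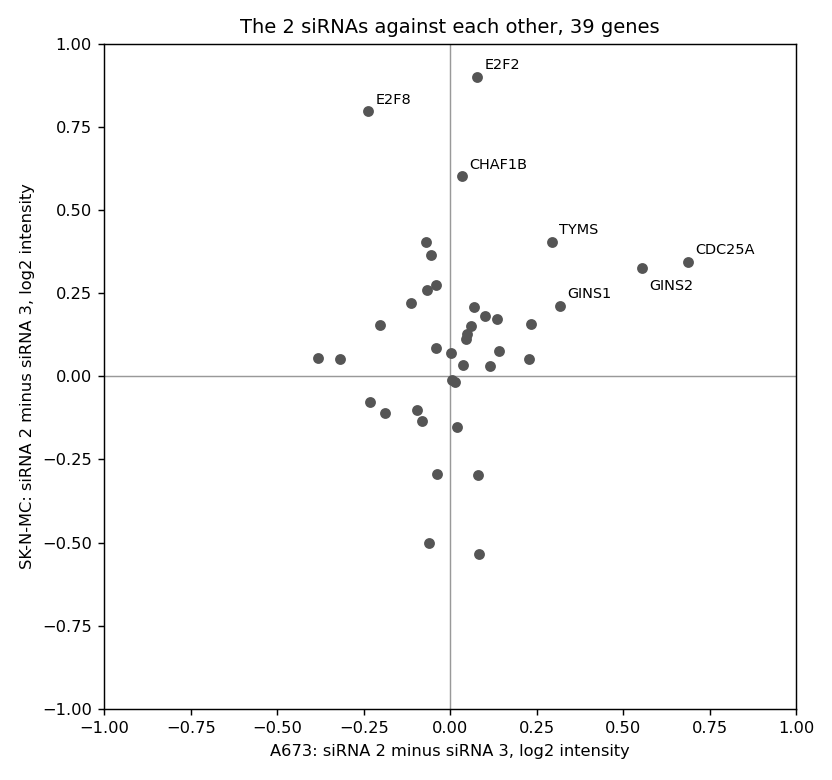
siRNA 2 minus siRNA 3 for the 39 genes as log2 difference, A673 on the horizontal and SK-N-MC on the vertical axis; each point is 1 gene. CDC25A, GINS2 and TYMS lie to the upper right, and E2F2, E2F8 and CHAF1B are high on the SK-N-MC axis only, near or left of 0 on the A673 axis.

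No gene of the further lists was called under silencing across lines. Of the 37 other replication genes, 10 were positive and 27 negative across lines (median -0.06), with DNA2, a nuclease and helicase of Okazaki fragments, at -0.35 (SE 0.13) and CLSPN, the fork protein claspin, at -0.28 (SE 0.13). Of 24 G1 regulators, 6 were positive and 18 negative (median -0.03), with the kinase gene CDK6 at -0.43 (SE 0.14). Of 30 G2/M genes, 17 were positive and 13 negative (median 0.03). DNA2, CLSPN and CDK6 each had an adjusted p of 0.989. Of all genes 48.5% were positive, and of those with a mean of at least 4, 44.3%.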

How the data were processed

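Per the submitters' processing notes, the authors ran RMA in Affymetrix Expression Console 1.1, and the deposited numbers are array intensities on a linear scale. How RMA summaries, which are log2 values, became linear is not given in the sources. RMA had already corrected background and normalized between arrays, so log2 of each deposited intensity was taken with no further normalization. Of 33297 probe sets, the platform annotation lists 21214. Of these, 19460 carry 1 gene symbol and 1754 carry several, which were not used. Symbols were updated by gene identifier through RefSeq GRCh38.p14 (19429 matched), and the probe set with the highest mean was kept for each of 18417 genes. Detection calls were not used, and dim genes have no floor. The number of arrays limits the precision.

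Tests were two-sided, with lmFit and eBayes of limma 3.58.1 under R 4.3.3, and a call needed a Benjamini-Hochberg adjusted p below 0.05 over 18417 genes. The line difference and silencing across lines came from a fit with line and silencing terms (3 residual degrees of freedom). Responses within lines and their difference came from a fit of 4 group means, and the siRNA difference from a fit with line and siRNA terms (2 residual degrees of freedom each). Both siRNAs counted as replicates of silencing. The fits for the line difference, silencing across lines and the siRNA difference were tested on simulated data with known changes. Those data had the same spread in all genes. The fit of 4 group means was not tested in this way. Per the design text, the numbers 2 and 3 on the STEAP1 arrays name different siRNAs. The A673 control also carries a 2, with no stated meaning. No label ties a number to a culture or day, so no pairing was assumed.

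The 39 genes and the further lists were chosen with earlier results of these data known. By rule, every called gene was named between the lines, and otherwise the 3 or 6 genes with the smallest p in a comparison. Of each further list, up to 4 genes with the smallest p could be named. Genes not called between the lines, and E2F8, RRM2 and CCND3 levels, were described after their values were seen. Promoter sequences are those of RefSeq GRCh38.p14. Alternatives were a second quantile normalization, median centring, 16 added to each intensity before log2, a mean log2 of at least 4, the mean over probe sets, an intensity trend in eBayes, a replicate block, each siRNA alone, and each array left out.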

Additional observations from a re-analysis of the deposited data

How the results depend on the processing

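Scaling moved the median of all genes by about 0.02 or less in any comparison. The median of the 39 genes moved more in some comparisons, as from 0.24 to 0.15 between the lines after a second quantile normalization. Of 284 counts of called genes under other settings, 272 were within 1.5 times of the reported count and 12 were not. Of 71 medians over the 39 genes, 64 kept their sign and 7 did not. Of these 7, 5 were of silencing across lines (-0.0611 to 0.0492 with 1 array left out, and -0.0022 for siRNA 3 against control). The others followed a second quantile normalization, at 0.0238 within SK-N-MC and -0.0256, against 0.0788, for the difference of the responses. Of the values of single named genes, 507 stayed on their side of the threshold, 18 lost a call, all between the lines, and 1 changed sign. That was CCNE1 under silencing across lines, at 0.024 when the SK-N-MC control was left out, within a range of -0.50 to 0.024 over arrays left out. Without the control of a line, silencing across lines rests on the other line alone. The 0.024 is thus the response within A673 and the -0.50 that within SK-N-MC. The medians of -0.0611 and 0.0492 are likewise those within SK-N-MC and within A673. Between the lines, genes called lower in A673 numbered 1355 with a mean log2 of at least 4, where fewer genes were tested, and 1330 to 2120 with 1 array left out. Under silencing across lines, 0 to 1 genes were called lower with 1 array left out. Within SK-N-MC, 0 genes were called lower with 16 added to each intensity and 5 with an intensity trend, and with 1 array left out 0 to 60 were lower and 0 to 1 higher. For the difference of the responses, 0 to 26 genes were called higher with 1 array left out. With the replicate block, which ties the arrays with the same treatment in both lines, 15 of the 39 genes were higher and 6 lower in A673, with CDC45 gained, beside 2548 and 2172 of all genes. The block was not used for silencing or within a line: on the STEAP1 arrays the number names the siRNA, and the SK-N-MC control carries none. Without the control array of a line, its response and the difference of the responses could not be fitted. Where a left-out array leaves 1 array in a group, that array is assumed to vary like the others. With 1 control array per line and 2 or 3 residual degrees of freedom, small responses of these genes were not detectable. Under silencing across lines even STEAP1, at -2.18, did not pass the threshold, so larger responses could also miss it.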
